A study of Homo sapiens with 12 samples.

Results

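The 54 genes described here are the long protein-coding genes among the 381 genes that were listed for MDA-MB-231 cells after transit through 5 µm constrictions. A listed gene was taken when its annotated type was protein coding and its deposited gene length was 6000 bases or more, and names starting with ZNF, ZBTB, SLC or ABC were left out, which removed 3 further genes (ZNF8, ZBTB20 and SLCO2A1). Of the 144 coding genes listed for this cell line, 87 were shorter than 6000 bases and served as the comparison. The tables of the 3 cell lines of the study hold 3158 rows in all.

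The study sequenced RNA in 12 libraries from the breast lines MCF-10A, LM2 and MDA-MB-231, with 2 libraries of transited cells and 2 of control cells for each cell line. MDA-MB-231 came from a triple negative breast cancer, LM2 is a metastatic derivative of MDA-MB-231, and the epithelial line MCF-10A is not malignant. Transited cells were drawn in suspension through channels with a width and height of 5 µm and a length of 150 µm by a hydrostatic pressure of 7 to 33 cmH2O and collected afterwards, and the control cells of the same line did not pass the constriction. Each library holds the pooled cells of 1 experiment, so that a change within the cells and a change in which cells were collected cannot be told apart. For MDA-MB-231 the paper lists far less total RNA from the transited than from the control cells in both replicates. An effect of the RNA amount on the counts cannot be told apart from the transit either.

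Protein-coding messages differ widely in length. Very long coding messages encode giant proteins, among them cytoskeletal crosslinkers and motors, scaffold proteins of chromatin, large ubiquitin ligases and giant cadherins. Others owe their length to a long 3′ untranslated region behind a coding part of common size. Among the cytoskeletal proteins are those that anchor the nucleus to the filaments of the cell, and a cell in a constriction narrower than its nucleus has to deform both.

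A length in the tables counts every exon base of a gene over all of its annotated isoforms, and it equalled that merged exon length in GENCODE 29 (GRCh38) for 381 of 381 rows. It is therefore not the length of a single message. As the longest coding transcript of a gene, the one with the longest coding part was taken, and other isoforms can be longer through untranslated regions. In 34 of the 54 genes it was itself 6000 bases or more, and in the other 20 it was shorter. The name long transcript was therefore borne out for only part of the genes that the rule takes. Merged lengths ranged from 6009 bases in RIPOR3 to 42341 bases in DST.

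The library totals of MDA-MB-231, computed from counts, FPKM and gene lengths, were 47401785 and 49684035 reads for the transited cells and 37214886 and 53584754 for the controls. None of 6 epithelial, 4 mesenchymal and 3 white blood cell markers was among the listed rows, so the identity of the cells could not be checked on them.

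In MDA-MB-231 cells that had transited the constriction, 38 of the 54 long coding genes had a higher mean normalised count than in control cells and 16 had a lower one, with the authors' size factors. The histone methyltransferase KMT2D, the crosslinker plectin (PLEC), the scaffold AHNAK, the dynein heavy chain DYNC1H1 and the ubiquitin ligase HUWE1 were among the higher genes, and the kinase SGK1 and the laminin chain LAMB4 among the lower ones. In every one of the 54 genes, the values of the transited and of the control libraries did not overlap. This is close to the background, since 94.5% of all 381 rows did so, 61.9% above and 32.5% below the control libraries, and since a gene entered the table through the authors' own p-value on these libraries. By edgeR's quasi-likelihood test with Benjamini-Hochberg adjustment, 0 of the 54 genes were called and every one had an adjusted p of 1, beside 0.262% of all rows. At an unadjusted p under 0.05, edgeR counted 46 of the 54, beside 94.0% of all rows, while DESeq2 and limma also called 0. Of the 87 shorter coding genes, edgeR called 0, DESeq2 3 and limma 0, and edgeR counted 78 at an unadjusted p under 0.05.

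The libraries were made in 2 replicate experiments, each with its own control. With the replicate number as a block, edgeR's quasi-likelihood test called 31 of the 54 long coding genes, 25 of them higher and 6 lower, against 19 of the 87 shorter coding genes (8 higher, 11 lower) and 22.6% of all rows, 14.7% higher and 7.87% lower. The number of calls followed the read depth of a gene. Where the mean normalised count reached 1000, the block called 27 of 31 long coding genes, 9 of 15 shorter coding genes and 47 of all 58 rows (81.0%). At that depth 55.2% of all rows were called higher and 25.9% lower. These rows include the long coding genes, and of the 27 others 10 (37.0%) were called higher. Below, rose and fell are used of a gene that was called with this block, and all other differences are given as values. Without the block none of the 54 genes was called with the authors' size factors, so these words rest on the block. Deviations from the group means correlated only weakly between same-numbered libraries, at 0.0827 over all rows.

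The median log2 fold change, computed on the mean normalised count plus 1, was 0.47 for the long coding genes, 0.43 for the shorter coding genes and 1.08 for all 381 rows. With factors by the trimmed mean of M-values (TMM) over the listed rows, these medians were 0.056, 0.019 and 0.67. TMM takes most genes as unchanged, whereas these rows were listed for a difference. The long coding genes held 568202 of the 720606 reads of the listed rows in the first constriction library, so they weigh on these factors. Values with TMM factors are therefore no independent scaling. The medians of the long and the shorter coding genes differed by 0.039, beside a spread of that difference between the replicates of 0.13 (SD, n = 2), but this difference rests on the border and on the low counts. It was 0.85 and 0.88 with borders of 5000 and 8000 bases and 0.92 at a mean normalised count of at least 10. With all counts and the border of 6000 bases it was 0.38 and 0.29 without the first and the second constriction library, and 0.090 and 0.22 without the first and the second control library. The genes with more reads differed in direction. Of the long coding genes whose mean normalised count was 100 or more, 30 of 38 were higher after transit, whereas 20 of 54 shorter coding genes with such counts were. Their medians were 0.47 and -0.48, a difference of 0.95. With TMM factors 27 of the 38 and 20 of the 54 were higher, and the medians were 0.056 and -0.89. These counts hold with each library left out, except that without the second control library 22 shorter genes were higher. At a mean normalised count of at least 1000, 24 of 31 long and 5 of 15 shorter coding genes were higher.

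Within the long coding genes, the highest length class stood apart. Of the 25 genes of 15000 bases or more, 24 were higher after transit, the exception being GUCY1A2 with 1 read in both constriction libraries together. Their median log2 fold change was 0.49 (0.081 with TMM factors) and the block called 21 of them, all higher. Of the 25 genes 21 had means of 1000 or more, where 55.2% of all rows were called higher and 81.0% in either direction. These rows include the 21 genes themselves, and of the rows that are no long coding genes 37.0% were called higher. Among the 29 genes from 6000 to under 15000 bases, 14 were higher and 15 lower, with a median of -0.43 (-0.84 with TMM factors), and the block called 4 that rose and 6 that fell. The border of 15000 bases was chosen after the values were seen and no test was made on it. With TMM factors, which lowered the log2 fold change of all rows by a median of 0.39, 22 of the 25 longest genes and 35 of the 54 genes were still higher, and the groups of 31 of the 54 did not overlap. By more than the spread between libraries, TMM factors moved the log2 fold change of 36 of the 54 genes without a change of sign, and they turned the sign of 3.

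**Figure D1:**
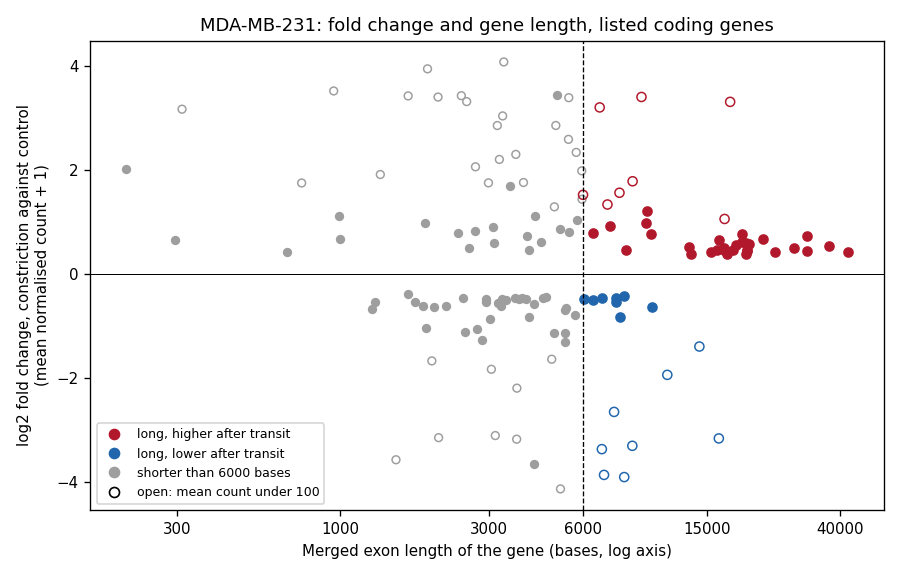
Log2 fold change of constriction against control in MDA-MB-231 (vertical axis) and merged exon length in bases (horizontal axis, log scale) for the 141 coding genes compared, each point a gene, where filled points stand for a mean normalised count of 100 or more, red and blue points are long coding genes with higher and lower means after transit, grey points are shorter genes, and the dashed line marks 6000 bases. Right of 15000 bases, 24 of 25 points lie above 0 with the authors' size factors, 22 of 25 with TMM factors.

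A larger share of the longest genes was listed. Of the annotated coding genes of GENCODE 29 with 15000 bases or more, outside the 4 name groups, 25 of 460 (5.43%) were in the table. In the class from 6000 to under 10000 bases it was 25 of 4032 (0.62%), from 10000 to under 15000 bases 4 of 1330 (0.301%), and under 6000 bases 87 of 13714 (0.634%). The annotated genes include those that these cells do not express. Long genes collect more reads at a given level, and across the 54 genes the merged length and the mean normalised count had a Spearman correlation of 0.59, a description over genes that share their libraries. The length and the log2 fold change had a Spearman correlation of 0.13 across the same 54 genes and 0.21 across the 92 coding genes whose mean normalised count was 100 or more. Over all 141 coding genes it was -0.031 and over the 87 shorter ones -0.063.

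**Figure D2:**
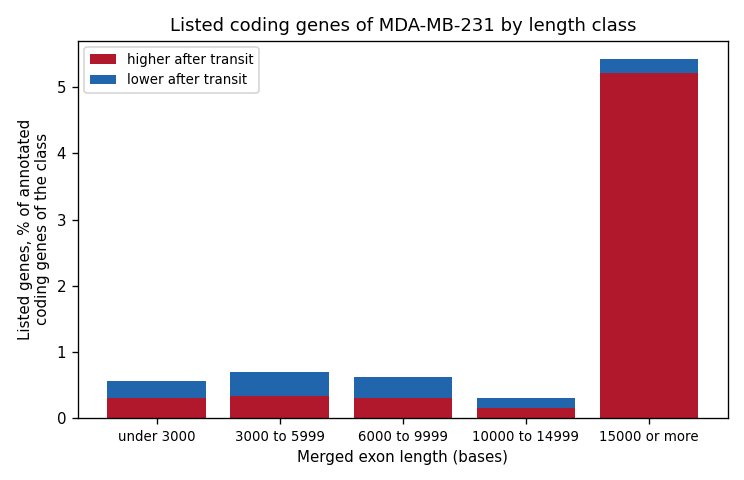
Share of the annotated coding genes of each merged exon length class that the MDA-MB-231 table lists (vertical axis, in percent), split into genes with a higher (red) and a lower (blue) mean after transit by the authors' size factors. The class of 15000 bases or more reaches 5.43%, 24 of its 25 genes being higher (22 with TMM factors), and the other 4 classes stay between 0.301% and 0.701%.

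As a share of all reads, the 54 genes took 1.199% and 1.337% of the constriction libraries and 0.846% and 0.977% of the control libraries. Both constriction libraries lay above both control libraries. Between 58.6% and 62.8% of these reads fell in 4 genes of each library. The shorter coding genes took 0.156% and 0.195% of the constriction libraries and 0.139% and 0.161% of the control libraries, so that their groups overlapped.

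Direction went with the length of the coding part. In each of the 22 genes whose longest coding transcript held 6000 or more coding bases, the mean after transit was higher with the authors' size factors, and in 19 of the 22 with TMM factors, the exceptions being ASH1L, TRRAP and HUWE1. Among these 22 genes 20 were called with the block, all of them higher, and 20 of the 22 had means of 1000 or more. At such means the block called 87.1% of long coding genes and 81.0% of all rows in either direction. It called 55.2% of all rows higher, and 37.0% of the rows that are no long coding genes. The 32 genes with a shorter coding part were 16 higher and 16 lower. In 12 of these, the longest coding transcript reached 6000 bases through its untranslated regions. Of the 12, 8 were higher (TNRC6B, HIPK2, FOXK1, NUDT3, FEM1A, SPATA5, SCUBE3 and LIN7A), while UNC13A, RGPD5, TFEC and TNFSF15 were lower. In the 20 genes where the transcript with the longest coding part was under 6000 bases, 8 were higher and 12 lower. Their other isoforms were not measured. The splits by transcript and by coding length were made after the directions were known.

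The 38 higher genes had a median coding length of 10302 bases, 23 exons and a genomic span of 136846 bases. In the 16 lower genes these medians were 2094 bases, 14 exons and 64117.5 bases. Median GC content of the longest coding transcript was 51.1% in the higher and 47.6% in the lower genes, and both ranges, from 36.7% to 67.0% and from 32.9% to 61.6%, covered each other for the most part.

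**Figure D3:**
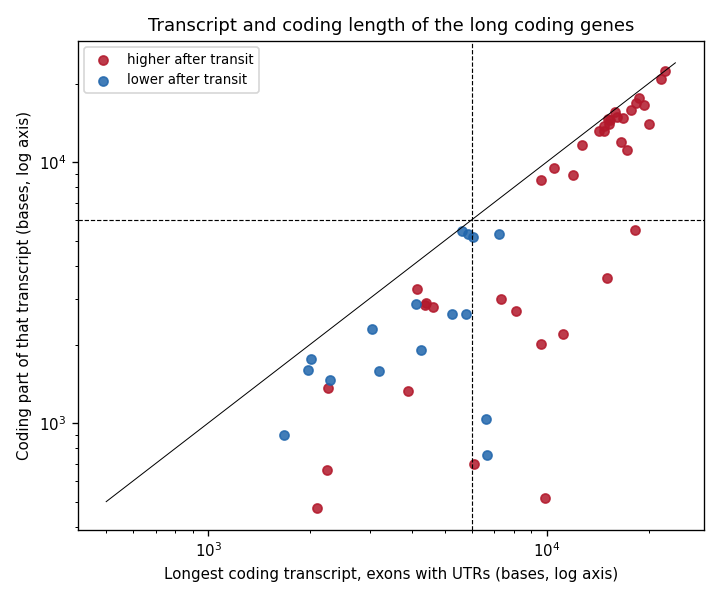
The longest coding transcript, taken as the one with the longest coding part, and that coding part in the 54 long coding genes. Transcript length is on the horizontal and coding length on the vertical axis (bases, log scale). Points are red where the mean was higher after transit and blue where it was lower by the authors' size factors. A solid line marks equal lengths and dashed lines mark 6000 bases. All 22 points above the horizontal dashed line are red, of which ASH1L, TRRAP and HUWE1 were below 0 with TMM factors.

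A promoter of 300 bases, from 250 before to 50 after the RefSeq start, was at hand for 43 of the 54 genes by symbol. There was none for TRRAP, PLEC, FAT4, HIPK2, PRR26, SPATA5, GBP5, AKAP2, SCUBE3, POLR2J3 and MATN2. The dinucleotide CG, which reads the same on both strands, occurred a median of 28 times in the promoters of 29 higher genes and 15 times in those of 14 lower genes, beside 17 times in 49 shorter coding genes and 22 times in the 14896 coding promoters of the table. The letters TATAAA on either strand were found in 3 of the 29 and in 3 of the 14, and in 9.37% of all coding promoters. The following 4 are shown, 5′ to 3′ in the direction of the gene and with CG in capitals, because they set KMT2A, KMT2D and AHNAK, which rose, beside LAMB4, of which no read was counted after transit. They are examples and do not stand for a rule. SOBP, with no reads after transit, had 45 CG, and TUBGCP6, GOLGA8B and LUC7L3, which fell, had 42, 38 and 35, while HRNR and ZFHX3, which rose, had 1 and 5 and EYS, also higher, had 2. Coordinates are those of GRCh38.p14.

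KMT2A, plus strand, chr11:118436242-118436541, with 36 CG and 76.3% GC:
KMT2A promoter: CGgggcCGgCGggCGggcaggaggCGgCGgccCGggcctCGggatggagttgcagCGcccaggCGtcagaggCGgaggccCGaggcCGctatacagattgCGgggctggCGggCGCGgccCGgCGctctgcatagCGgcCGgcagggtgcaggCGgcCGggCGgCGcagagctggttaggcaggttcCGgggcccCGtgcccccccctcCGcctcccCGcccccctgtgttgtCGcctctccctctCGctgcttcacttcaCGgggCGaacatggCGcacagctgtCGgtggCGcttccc
KMT2D, minus strand, chr12:49060745-49061044, with 27 CG and 65% GC:
KMT2D promoter: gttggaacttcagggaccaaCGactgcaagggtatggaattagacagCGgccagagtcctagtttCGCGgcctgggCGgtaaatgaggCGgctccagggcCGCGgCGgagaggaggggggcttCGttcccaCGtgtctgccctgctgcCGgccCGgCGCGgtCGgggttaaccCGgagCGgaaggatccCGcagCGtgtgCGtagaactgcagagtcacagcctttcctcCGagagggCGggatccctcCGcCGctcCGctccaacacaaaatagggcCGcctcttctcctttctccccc
AHNAK, minus strand, chr11:62545777-62546076, with 25 CG and 70% GC:
AHNAK promoter: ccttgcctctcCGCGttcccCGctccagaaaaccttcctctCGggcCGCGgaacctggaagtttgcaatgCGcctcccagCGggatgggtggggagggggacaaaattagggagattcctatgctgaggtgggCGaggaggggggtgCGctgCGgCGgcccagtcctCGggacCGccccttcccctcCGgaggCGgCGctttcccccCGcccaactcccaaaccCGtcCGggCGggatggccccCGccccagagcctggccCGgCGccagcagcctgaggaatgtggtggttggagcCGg
LAMB4, minus strand, chr7:108130312-108130611, with 2 CG and 39.7% GC:
LAMB4 promoter: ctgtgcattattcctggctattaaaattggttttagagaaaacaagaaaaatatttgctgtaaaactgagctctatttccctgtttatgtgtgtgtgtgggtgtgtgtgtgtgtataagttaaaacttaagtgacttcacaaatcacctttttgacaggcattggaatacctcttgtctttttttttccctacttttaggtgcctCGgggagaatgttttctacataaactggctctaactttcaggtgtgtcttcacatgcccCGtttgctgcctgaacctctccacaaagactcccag

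The first group by role are chromatin regulators, enzymes and scaffolds that write or read histone marks. Of a list of 80 such genes, 5 were in the MDA-MB-231 table, all 5 of them long coding genes, and all 5 had a higher mean after transit with the authors' size factors, while with TMM factors ASH1L and TRRAP changed sign (-0.029 and -0.028) and KMT2A, KMT2C and KMT2D were reduced to 0.025, 0.034 and 0.17. With the replicate block 4 of the 5 rose, and all 5 had mean normalised counts over 1000. This count stands beside the 55.2% of all rows called higher, and the 81.0% called in either direction, at such counts. Of the rows there that are no long coding genes, 37.0% were called higher. KMT2D, a methyltransferase that places H3K4 monomethylation at enhancers (chr12:49018975-49059774), had normalised counts of 7782 and 8123 after transit against 5217 and 5416 in control cells. This is a log2 fold change of 0.58 ± 0.04 (SE, n = 2 against 2), with an edgeR adjusted p of 1.107e-06 under the block. It was the narrowest spread of the 5, and its constriction libraries were nearly equal.

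KMT2A, the MLL1 methyltransferase (chr11:118436464-118526832), had normalised counts of 7879.6 and 8562 in transited cells beside 6144 and 6053, with a log2 fold change of 0.43 ± 0.06. Under the block its edgeR adjusted p was 0.001727, and 18.9% of its exon bases overlap other annotated genes, among them AP001267.5 on the same strand. KMT2C, the paralog of KMT2D, had 6013 and 7447 against 4655 and 5257, and it rose by 0.44 ± 0.18 on the log2 scale with an edgeR adjusted p of 0.002864. Reads of KMT2C may be shared with its near-identical copies in the genome. The scaffold of histone acetyltransferase complexes TRRAP had 8855 and 10181 against 6977 and 7654, a rise of 0.38 ± 0.12 with an adjusted p of 0.008341 by edgeR with the block. ASH1L, which methylates H3K36, had 5204 and 4868 against 3941 and 3808. Its groups did not overlap, but it was not called with the block (log2 fold change 0.38 ± 0.05, edgeR adjusted p 0.05295).

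Of 27 genes of RNA silencing, decay and processing, only TNRC6B was listed, the scaffold through which Argonaute proteins recruit the deadenylation machinery. Its normalised counts were 1701 and 2163 in transited cells, against 1156 and 1399 in the controls. It rose by 0.60 ± 0.22 on the log2 scale (edgeR with the block, adjusted p = 0.002159), or 0.19 with TMM factors. In its longest coding transcript, 12569 of the 18279 bases lie in the 3′ untranslated region. The splicing factor LUC7L3, a long coding gene that is not on this list, fell (log2 fold change -0.43).

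Nuclear envelope and cytoskeletal genes made up a second group of 5, from a list of 149 genes. All 5 had higher means after transit with the authors' as well as with TMM factors. With the latter the log2 fold changes of SYNE2, AHNAK, DYNC1H1 and PLEC were reduced to 0.33, 0.20, 0.14 and 0.056. TUBGCP6, a gamma-tubulin complex protein among the long coding genes but not on this list, fell (log2 fold change -0.46). All 5 genes of the group rose with the block and had means of 1000 or more, where 55.2% of all rows were called higher and 81.0% in either direction. Among rows that are no long coding genes, 37.0% were called higher there. The highest level per length of all 54 genes was that of PLEC, which crosslinks intermediate filaments to actin and to the nuclear envelope, with a mean FPKM of 159.9 after transit and 115 in control cells. Its normalised counts were 122268 and 128263 against 79322 and 101919, so that the control libraries differed more than the constriction libraries did. The log2 fold change was 0.47 ± 0.18 with an adjusted p of 7.313e-10 by edgeR with the block.

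AHNAK, a giant scaffold under the plasma membrane (chr11:62433542-62556235), followed with a mean FPKM of 127 against 81.9. Its normalised counts of 106989 and 120199 lay above the 69519 and 79103 of control cells. The log2 fold change was 0.61 ± 0.13, and its adjusted p of 9.825e-16 by edgeR with the block was the lowest of the 54 genes. Without the block the unadjusted p of AHNAK by edgeR was 0.01334, and its adjusted p by DESeq2 was 0.7796. DYNC1H1, the motor subunit of cytoplasmic dynein (chr14:101964510-102056443), had 66207 and 81106 against 45511 and 55412 and rose by 0.55 ± 0.20 (edgeR with the block, adjusted p = 2.457e-11). Both libraries of replicate 2 were the higher of their group in DYNC1H1, as they were in PLEC and AHNAK.

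SYNE2, which encodes nesprin-2, the outer nuclear membrane protein that ties the nucleus to actin (chr14:63852983-64226433), had the largest log2 fold change of the 5. It had 5916 and 7861 normalised counts in transited cells against 3923 and 4374 in the controls, and rose by 0.73 ± 0.22 (edgeR with the block, adjusted p = 1.068e-09). DST, or dystonin, a plakin that links filament systems (chr6:56457987-56954628), is the longest of the 54 genes. Its counts of 36320.3 and 42653 against 28848 and 30519.6 gave a rise of 0.41 ± 0.12 with an adjusted p of 3.742e-05 by edgeR with the block, and with TMM factors its log2 fold change was 0.0054.

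**Figure D4:**
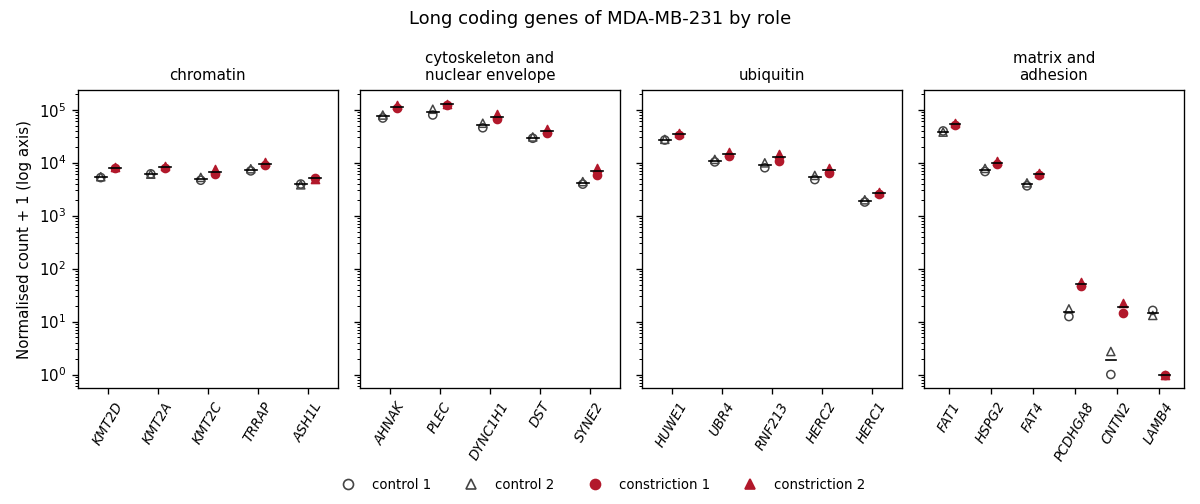
Normalised count plus 1 (vertical axis, log scale) of the long coding genes of 4 roles in the 2 control libraries (open) and the 2 constriction libraries (red) of MDA-MB-231, circles for replicate 1 and triangles for replicate 2, with a black bar at each mean. LAMB4 lies below its control libraries and the other 20 genes lie above theirs with the authors' size factors, while ASH1L, TRRAP and HUWE1 turn below 0 in log2 fold change with TMM factors. Only genes on the role lists are drawn, so TUBGCP6 and MATN2, both lower after transit, are absent.

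Ubiquitin ligases were the third group. From a list of 87 ubiquitin and proteostasis genes, 5 were listed, all long coding and all higher after transit with the authors' size factors, while with TMM factors HUWE1 changed sign (-0.025) and UBR4, HERC2, HERC1 and RNF213 were reduced to 0.0075, 0.046, 0.081 and 0.092. With the block all 5 rose, beside the 55.2% of all rows called higher, and the 81.0% called in either direction, at means of 1000 or more. Without the long coding genes, 37.0% of these rows were called higher. HUWE1, a HECT domain ligase with many substrates (chrX:53532096-53686729), had 33898 and 36726 normalised counts against 26711 and 27488, a log2 fold change of 0.38 ± 0.06 and an adjusted p of 0.0002665 by edgeR with the block. The N-recognin UBR4 (chr1:19074506-19210276) had 13417 and 15677 against 10313 and 11507 and rose by 0.41 ± 0.14 (edgeR with the block, adjusted p = 0.0006074). In RNF213, a giant ligase with an ATPase ring (chr17:80260866-80398786), the constriction libraries stood far apart at 10597 and 14725, and the lower of them was close to the higher control library (8003 and 9905).

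RNF213 rose by 0.50 ± 0.28 with an adjusted p of 1.605e-05 by edgeR with the block. HERC2 and HERC1, which carry a HECT domain beside RCC1-like repeats, had 6478 and 7939 against 4787 and 5733, and 2582 and 2734 against 1802 and 1986 normalised counts. They rose by 0.45 ± 0.20 and 0.49 ± 0.08 with adjusted p-values of 0.001089 and 0.01202 by edgeR with the block. A pseudogene copy of HERC2, HERC2P3, was listed with the opposite direction, at 28.3 and 46.2 against 97.7 and 92.9 normalised counts.

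The fourth group were extracellular matrix and adhesion genes. Of the list for this role, chosen like the others with earlier results known, 8 genes were in the table, 6 of them long coding genes. Of these 6, 5 were higher and 1 lower under the authors' and under TMM factors. With TMM factors the log2 fold changes of FAT1, HSPG2 and FAT4 were reduced to 0.063, 0.050 and 0.24. The other 2 listed genes are shorter coding genes, PCDHGA5 with a log2 fold change of 1.04 and CDH24 with -0.48. The matrilin MATN2, a long coding gene that is not on this list, was lower (log2 fold change -0.47, or -0.88 with TMM factors). The giant protocadherins FAT1 and FAT4 and the basement membrane proteoglycan perlecan (HSPG2) rose with the block, and PCDHGA8, CNTN2 and LAMB4 were not called. The 3 that rose had means of 1000 or more, where 55.2% of all rows were called higher and 81.0% in either direction. Of the rows there outside the long coding genes, 37.0% were called higher. FAT1, which regulates actin dynamics and growth signalling (chr4:186587783-186726722), had 51001 and 55985 normalised counts against 39646 and 37683. It rose by 0.47 ± 0.08 (edgeR with the block, adjusted p = 1.456e-07). FAT4, a ligand and receptor of planar polarity (chr4:125316399-125492932), had 5834 and 6339 against 3644 and 4147 and rose by 0.64 ± 0.11 (edgeR with the block, adjusted p = 2.114e-07).

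HSPG2 had 9400.1 and 10601 against 6785 and 7770.1 and rose by 0.46 ± 0.13 (edgeR with the block, adjusted p = 0.0002039), and 11.7% of its exon bases overlap other genes, LDLRAD2 on the opposite strand among them. PCDHGA8, a clustered protocadherin, had 44.9 and 55.4 against 11.4 and 16.3 normalised counts, but 51.4% of its exon bases belong also to other genes of the same protocadherin cluster. The neural adhesion molecule CNTN2 was near the floor, with 37 reads in both constriction libraries together and 2 in both control libraries. The ratio of normalised reads was 17.1 with a 95% counting interval from 4.42 to 147.

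LAMB4, a laminin beta chain, had 0 reads in either constriction library and normalised counts of 15.2 and 12 in control cells. Against a floor of 3 reads in each library, the transited cells were at least 4.78-fold lower. The other genes with no reads after transit were GBP5, an interferon-induced GTPase, with 15.2 and 12.9 in control cells and at least 4.93-fold lower, SOBP with 10.1 and 8.6 and at least 3.29-fold lower, and the MiT family factor TFEC with 12.7 and 5.16 and at least 3.13-fold lower. GUCY1A2, a subunit of soluble guanylate cyclase, had 1 read after transit and 25 in control cells, a control to constriction ratio of 27.0 with a 95% counting interval from 4.42 to 1108. Floors and intervals cover counting error only. None of these 5 genes was called with the block.

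The ion channel list (29 genes) and the DNA repair and growth control list (18 genes) had 0 rows in the table. So had the list of transcription factors with long messages (11 genes), and no gene of these lists is among the 54. The transcription factors ZFHX3, FOXK1 and TFEC are among the 54 genes but not on that list.

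Of the long coding genes whose mean normalised count was 100 or more, the largest differences upward were in HRNR, FEM1A, SCUBE3 and RNFT2. HRNR, or hornerin, a cornified envelope protein of the epidermis, had 281 and 379.7 normalised counts after transit against 108 and 175, and rose by 1.22 ± 0.41 (edgeR with the block, adjusted p = 0.001995). FEM1A, a substrate receptor of a ubiquitin ligase, had 426 and 305 against 183 and 187 and rose by 0.98 ± 0.24 (edgeR with the block, adjusted p = 0.03279). For FEM1A 37.2% of the exon bases overlap AC005523.2 on the opposite strand, and the strandedness of the libraries is not stated. SCUBE3, a secreted glycoprotein, had 259 and 309 against 138 and 163, and RNFT2, a ring finger transmembrane protein, had 345 and 406 against 239 and 194. Neither was called with the block, though their groups did not overlap (log2 fold changes 0.91 ± 0.17 and 0.79 ± 0.19). With TMM factors the log2 fold changes of HRNR, FEM1A, SCUBE3 and RNFT2 were 0.81, 0.57, 0.51 and 0.39.

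In the other direction, the largest differences at such counts were in TNFSF15, SGK1, GOLGA8B and LENG8. SGK1, the serum and glucocorticoid regulated kinase (chr6:134169246-134318112), had 889 and 1167 normalised counts after transit against 1403 and 1798 in control cells. It fell by 0.64 on the log2 scale (SE 0.26, edgeR with the block, adjusted p = 0.001318). TNFSF15, a cytokine of the TNF family, had 87.9 and 115 against 179 and 185, with a log2 fold change of -0.83 ± 0.20 and an adjusted p of 1 by edgeR with the block. GOLGA8B, a golgin with near-identical copies on chromosome 15, had 1639 and 1146 against 1950.0 and 2125, and fell by 0.55 with an SE of 0.27 (edgeR with the block, adjusted p = 0.003287).

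LENG8 had 8231 and 6115 against 9997 and 10460.5 and fell by 0.51 with an SE of 0.22 and an adjusted p of 4.89e-06 by edgeR with the block. Also falling with the block were the splicing factor LUC7L3, with 4298 and 3201 against 5218 and 4900.0, and the gamma-tubulin complex protein TUBGCP6, with 1681 and 1367 against 1986 and 2221. With TMM factors TNFSF15, SGK1, GOLGA8B and LENG8 were further from 0, at -1.23, -1.05, -0.96 and -0.92, and LUC7L3 and TUBGCP6 were at -0.84 and -0.88. In each of GOLGA8B, LENG8, LUC7L3 and TUBGCP6, the second constriction library was the lower one. The sixth, DHRS2, a short chain dehydrogenase, had 16.6 and 10.2 against 82.5 and 97.2. It fell by 2.66 on the log2 scale (SE 0.35, adjusted p = 0.01117 by edgeR with the block), and it was the only long coding gene that edgeR called with TMM factors (adjusted p = 0.02248).

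The remaining genes that rose with the block were ZFHX3, a homeobox and zinc finger factor, MDN1, an AAA ATPase of ribosome assembly, the kinase HIPK2, the forkhead factor FOXK1 and NUDT3, a diphosphoinositol phosphatase. Their log2 fold changes were 0.67, 0.55, 0.43, 0.51 and 0.76, and with TMM factors 0.26, 0.15, 0.024, 0.10 and 0.35. In NUDT3 95.9% of the exon bases belong also to the read-through gene RPS10-NUDT3, so its reads cannot be assigned. MDN1 and HIPK2 had the higher value of each group in replicate 1, at 3986 against 2734 and 10822 against 8302 normalised counts, unlike the cytoskeletal genes.

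Genes with few reads spread far more widely. PRR26 had 15.6 and 44.3 against 1.27 and 2.58 normalised counts and LIN7A, a PDZ polarity protein, 37.1 and 14.8 against 1.27 and 2.58, log2 fold changes of 3.41 ± 0.79 and 3.20 ± 0.72 with adjusted p-values of 0.07014 and 0.2737 by edgeR with the block. EYS, a photoreceptor protein, differed between its constriction libraries, with 85 and 174 against 57.1 and 66.2. UNC13A, a priming factor of synaptic vesicles, had 10.7 and 5.54 against 22.8 and 45.6. RGPD5, of a gene family with near-identical copies, had 39.1 and 23.1 against 124 and 43, and AKAP2, with 85.8% of its exon bases shared with PALM2-AKAP2, had 120.2 and 73.9 against 29.2 and 35.3. None of these 6 was called with the block.

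The remaining genes were not called with the block either. SPATA5, an AAA ATPase, had 1606 and 1327 against 1142 and 986 normalised counts, MATN2, a matrilin of the extracellular matrix, 894 and 996 against 1306 and 1319, and ST3GAL3, a sialyltransferase, 229 and 209.7 against 124 and 133. POLR2J3, which has near-identical copies, had 122 and 95.2 against 39.3 and 45.6.

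**Figure D5:**
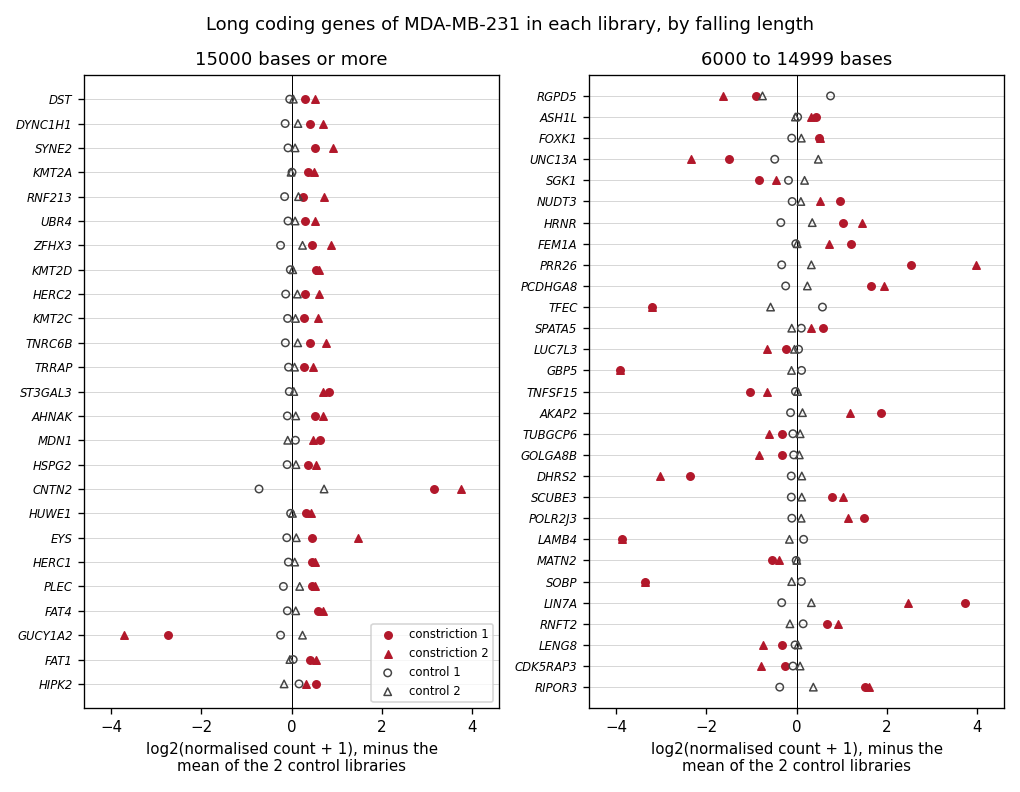
Log2 of the normalised count plus 1 in each MDA-MB-231 library, minus the mean of the 2 control libraries (horizontal axis), for the 54 long coding genes by falling merged exon length, with red symbols for constriction and open symbols for control libraries, circles for replicate 1 and triangles for replicate 2. In the left panel 24 of 25 genes have both red symbols to the right of both open ones with the authors' size factors, and 22 of 25 have a log2 fold change above 0 with TMM factors.

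The border of 6000 bases did not separate a group in itself. The genes just inside it were RIPOR3 with 6009 bases, CDK5RAP3 with 6070 and LENG8 with 6469, and their log2 fold changes were 1.52, -0.49 and -0.51. RIPOR3 had normalised counts of 54.7 and 58.2 after transit against 14 and 24.1, and CDK5RAP3, a component of the UFMylation pathway, 1111 and 763 against 1247 and 1392, and 33.9% of the exon bases of CDK5RAP3 overlap other genes. Just outside lay CAPN12 with 5966 bases, NOS3, the endothelial nitric oxide synthase, with 5953 and PCDHGA5 with 5733, with log2 fold changes of 1.44, 1.98 and 1.04.

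Within each replicate experiment, the median log2 fold change of the 54 genes was 0.45 in replicate 1 and 0.48 in replicate 2. For the 25 longest genes it was 0.52 and 0.55. All 54 genes had the same sign in both replicates, which groups that do not overlap imply.

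In the other cell lines, few of the 54 genes were listed. None of them was among the 97 rows of LM2, the line derived from MDA-MB-231. In the 2680 rows of MCF-10A there were 6, HRNR, MATN2, ST3GAL3, RIPOR3, POLR2J3 and LAMB4, and for all 6 neither constriction library of MCF-10A held a read, 0 reads in total. Of the 25 longest genes only ST3GAL3 was among these 6. The MCF-10A table holds 303 of the 5822 annotated long coding genes of the same rule, a smaller share than 6 of 54. The annotated genes include those that the cells do not express, so the shares are not alike, and no test was made. Of these 303, 14 were higher after transit, and 272 had no read in either constriction library. LM2 had 8, of which 1 was higher. The tables were normalised separately, and genes outside a table were not analysed here in that line.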

How the data were processed

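Messenger RNA was sequenced in 12 libraries from 3 breast cell lines, with 2 of transited and 2 of control cells per cell line. Groups were taken from the sample titles. The authors removed low quality reads with fastp, aligned the rest with Hisat2 v2.0.5 and counted them per gene with featureCounts v1.5.0-p3, and these are the deposited counts. The deposited normalised counts (signal) are the counts after division by a size factor of each library that the authors took from DESeq2 (1.20.0). The authors also deposited FPKM, computed from counts and gene length. The fold changes, p-values and adjusted p-values that the authors deposited are those of their own comparison, and they were used only to recover the number of genes that the adjustment ran over, 23976. Each table holds genes with an authors' unadjusted p-value under 0.05, so every test here describes genes selected on the same libraries and is not independent evidence. Directional and non-directional library preparation are both described in the methods without stating which was used.

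The 54 genes and all lists were chosen with earlier results of these data known. edgeR 4.0.16 (quasi-likelihood F-test) was run on the counts of all 381 rows with the authors' size factors, and p-values were adjusted by Benjamini-Hochberg over 23976 genes, with genes outside the table at a p of 1. The threshold for a call was an adjusted p of 0.05, two-sided. Scripts were tested on simulated data. A log2 fold change is that of the mean normalised count plus 1, with an SE from the spread of the 2 libraries per group, and where a group had 0 reads a bound against 3 reads per library is given. The alternatives were DESeq2 1.42.0, limma 3.58.1 with a pseudocount of 1, the replicate block, TMM factors, minimum mean normalised counts of 10 and 100, FPKM with a pseudocount of 0.1, pseudocounts of 0.5 and 10, length borders of 5000 and 8000 bases, the names left out by the rule, and each library left out. The block with a minimum count of 100 was added after the values were seen. The study lists control and transited cells together for each replicate experiment, so the replicate numbers were taken to pair the libraries. Deviations from the group means correlated between same-numbered libraries at 0.0827 over the 381 genes and at 0.159 over the 259 genes with a mean of at least 10. Named genes were the listed genes of 8 role lists, the 5 longest, the 8 with the highest mean, the 4 largest differences in each direction at a mean of at least 100, the 3 genes on either side of the length border and those listed for another cell line. The remaining long coding genes described were chosen after their values were seen, to account for all 54. Transcript lengths came from GENCODE 29, for the transcript with the longest coding part of each gene. Promoters came from RefSeq (GRCh38.p14), with the first entry per symbol.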

Additional observations from a re-analysis of the deposited data

Results flagged for a closer look

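Of the 6 long coding genes that were also listed for MCF-10A, 4 had opposite directions in the 2 cell lines in every replicate. Of all 303 long coding genes listed for MCF-10A, 14 were higher after transit and 272 had no read in either constriction library, so nearly any gene that was higher in MDA-MB-231 and listed there would differ in this way. HRNR, POLR2J3, RIPOR3 and ST3GAL3 were higher in both constriction libraries of MDA-MB-231, with log2 fold changes of 1.22, 1.34, 1.52 and 0.76 and adjusted p-values of 0.001995, 0.8696, 1 and 1 by edgeR with the replicate block, and had 0 reads in both constriction libraries of MCF-10A. In MCF-10A control cells their normalised counts were 252 and 49 for HRNR, 4.89 and 32.4 for POLR2J3, 8.81 and 21.3 for RIPOR3 and 51.9 and 97.1 for ST3GAL3. No test was made of this difference, because each cell line has its own normalisation. LAMB4 and MATN2 were lower after transit in both cell lines, LAMB4 with 0 reads in all 4 constriction libraries.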

How the results depend on the processing

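With the replicate number as a block, edgeR called 31 long and 19 shorter coding genes in place of 0 and 0, and 30 and 18 at a mean normalised count of at least 100, an alternative chosen after seeing the data. DESeq2 called 3 shorter and 0 long coding genes. TMM factors, computed on the listed rows alone, gave 1 and 4 calls, 31 long coding genes whose groups did not overlap and a median log2 fold change of 0.056. They turned HUWE1 (-0.025), ASH1L (-0.029) and TRRAP (-0.028) below 0. The difference between the medians of long and shorter coding genes, 0.039, became 0.92 and 0.95 at mean normalised counts of at least 10 and 100, and 0.85 and 0.88 with length borders of 5000 and 8000 bases. It ranged from 0.090 to 0.38 with a library left out, when the median of the long genes ranged from 0.41 to 0.55 and the calls from 0 to 0 among long and from 0 to 3 among shorter genes. The number of long coding genes higher after transit was 35 with TMM factors and 38 with FPKM and with each library left out. Pseudocounts and FPKM left the median of the long coding genes and its difference from that of the shorter within the spread between replicates, while with FPKM the median of all rows was 0.76 in place of 1.08. With a library left out, its group is a single library assumed to vary like the other group. The table holds selected genes, so nothing here describes the long genes that it does not list, and 2 libraries per group limit every value.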
